A study of Mus musculus with 2 samples.

Results

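The genes of 9 myelin structural proteins, Mbp, Mog, Mag, Mobp, Cnp, Cldn11, Mal, Opalin and Ermn, were examined in brain RNA of mice without interleukin-18. They were chosen by gene name, with earlier results of these data known, and were found through the accession printed for each probe. All 9 were measured, out of 15737 measured genes. Together they were read by 14 probes, each printed as 1 spot: 6 genes had 1 probe, Ermn had 2, and Mbp and Mobp had 3 each. Il18-/- and Il18+/+ were male C57Bl/6 N mice of 12 weeks. For each genotype, RNA from 7 mice was combined into 1 pool and hybridised to 1 one-colour Agilent array. How the Il18 allele was made is not given in the sources used here. The tissue is hippocampus in the sample labels and prefrontal cortex in the RNA extraction protocol, and the design text names both.

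Myelin is the multilayered membrane that oligodendrocytes wrap around axons in the central nervous system, and it speeds the conduction of action potentials. In compact myelin the cytoplasmic faces are held together by basic proteins, and the non-compact regions keep cytoplasm and contact the axon. The transcripts of these proteins are among the most abundant in mature oligodendrocytes and are far less abundant in precursors and in neurons. In RNA of whole tissue, fewer oligodendrocytes and less RNA per oligodendrocyte cannot be told apart.

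A level here is the log2 of a signal over its own array's 75th percentile, and a difference is the Il18-/- level minus the Il18+/+ level. Levels of different probes cannot be set against each other. A gene counted as measured where both arrays had the same probe well above background, and such probes were averaged. Because each genotype was read from 1 pool, there was no replicate check and no test, and precision is limited by having 2 arrays. The scanner software gives each spot an error of 10% to 10.6% of its signal. That comes to 0.20 to 0.21 for the log2 difference of 1 probe. Between repeated spots the difference had a median standard deviation of 0.07, over 304 probes that were each printed in 10 spots. Both cover technical error within the arrays only. The Il18 probe read -0.11 in Il18-/- and 1.38 in Il18+/+. Where it lies relative to the deletion is unknown here. In Il18-/- 66.2% of the spots were well above background, and in Il18+/+ 67.8%.

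Of the 9 genes, 8 read lower in Il18-/- and 1, Opalin, read higher. Of all measured genes, 47.4% were lower and 52.6% higher by any size. The median difference of the 9 was -0.19, against 0.01 for all measured genes. The differences were small: Mobp and Mbp were lower by 1.2-fold or more, as were 12.3% of all measured genes, and Opalin was higher by 1.2-fold or more, as were 7.33%. None of the 9 reached 1.5-fold, a size at which 2.57% of all genes were lower and 1.68% higher, and so none reached 2-fold, at which 0.451% were lower and 0.642% higher. The number of all genes past 1.2-fold was 1154 higher and 1942 lower, and it depended on the scaling. It was 1818 higher and 1434 lower with the median of each array, 1399 and 1552 with cyclic loess normalization, and 274 and 9241 with spike-in controls. Leaving out any 1 gene moved the median of the others to between -0.20 and -0.19. By probe, 12 of 14 read lower, against 48.7% of all measured probes. The 2 probes that read higher belong to Mbp and Opalin.

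**Figure D1:**
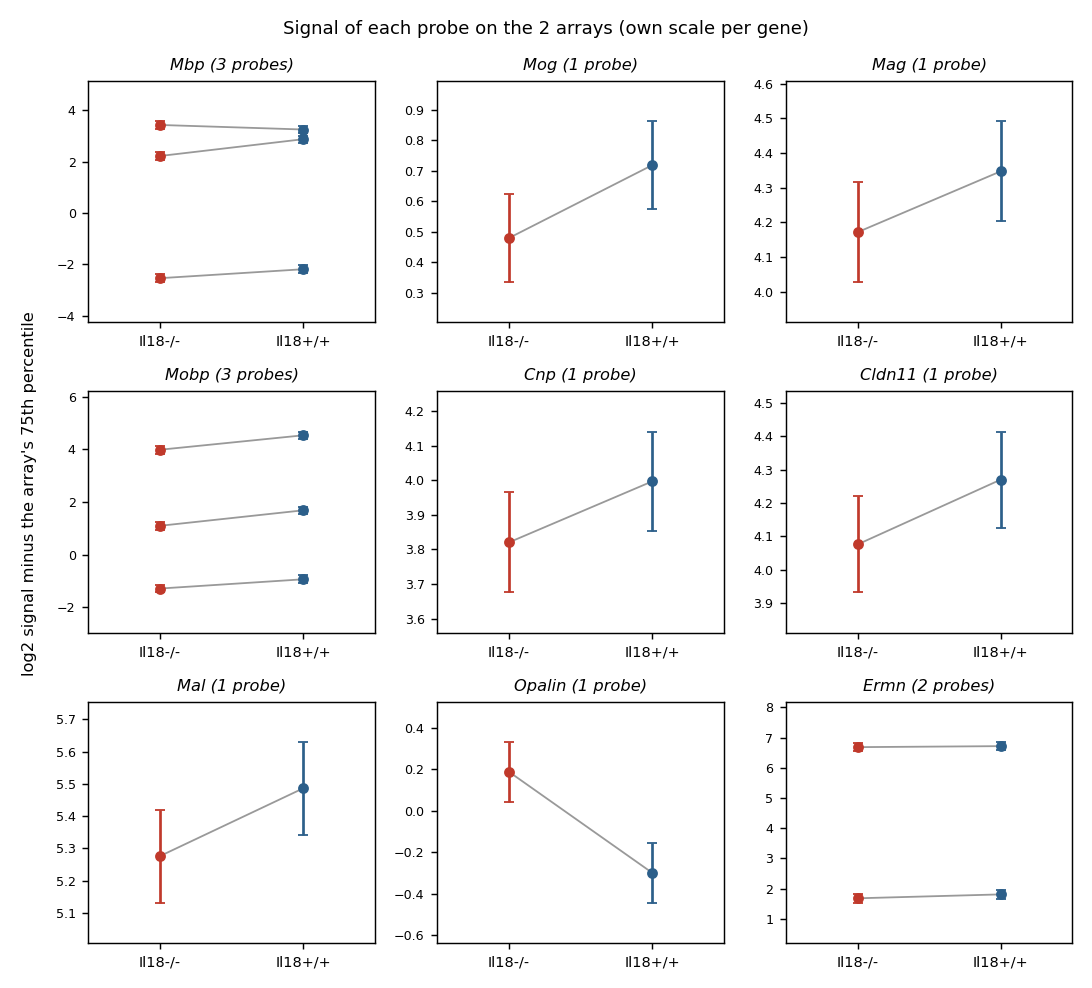
Log2 signal relative to the array's 75th percentile (vertical axis, a scale of its own for each gene) for each of the 14 probes on the Il18-/- array (left, red) and the Il18+/+ array (right, blue); a grey line joins the spots of 1 probe and bars are the scanner software's spot error. Opalin slopes the other way from the 6 genes Mog, Mag, Cnp, Cldn11, Mal and Mobp, and the 3 Mbp probes do not slope alike.

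Mobp, which encodes a small basic protein on the cytoplasmic side of compact myelin, was the lowest of the 9. Its 3 probes gave intensities of 1507, 289 and 11159 in Il18-/-, against 2217, 361 and 15974 in Il18+/+. All 3 read lower in Il18-/-, by differences of -0.59, -0.35 and -0.55. The gene averaged 1.26 in Il18-/- and 1.76 in Il18+/+, a difference of -0.50 ± 0.13 (SD over 3 probes) or 1.41-fold lower. Only 3.97% of all measured genes were lower than this. Mobp lies on chromosome 9, as Il18 does. Its promoter and that of Opalin, the genes with the lowest and the highest difference of the 9, are given below from RefSeq (GRCm38.p6). They run 5′ to 3′ on the strand of the gene, from 250 bases before the start site to 50 after it. Capitals mark ACAAAG or its reverse complement CTTTGT, the core letters bound by SOX factors, a family that includes the oligodendrocyte regulator SOX10.
Mobp promoter, chr9:120149492-120149791, plus strand: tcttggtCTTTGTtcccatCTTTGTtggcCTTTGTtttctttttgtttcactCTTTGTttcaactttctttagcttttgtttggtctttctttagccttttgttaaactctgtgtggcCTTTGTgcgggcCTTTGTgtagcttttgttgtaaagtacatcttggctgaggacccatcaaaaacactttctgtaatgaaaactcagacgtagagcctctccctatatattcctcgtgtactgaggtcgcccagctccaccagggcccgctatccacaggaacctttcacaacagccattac
Opalin promoter, chr19:41077064-41077363, minus strand: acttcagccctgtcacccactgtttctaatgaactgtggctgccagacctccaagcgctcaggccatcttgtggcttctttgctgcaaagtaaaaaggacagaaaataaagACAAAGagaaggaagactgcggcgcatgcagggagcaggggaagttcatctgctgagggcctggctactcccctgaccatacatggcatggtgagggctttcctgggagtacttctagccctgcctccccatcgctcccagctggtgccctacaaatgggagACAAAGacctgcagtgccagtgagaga

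The Mobp window held 6 matches, all read as CTTTGT, and the Opalin window held 2, both read as ACAAAG. The search covered both strands, and no other motif was searched. Of 32851 promoter windows of 300 bases, 18.7% held at least 1 match, 2.37% held at least 2, and 1 window, that of Mobp, held 6. Promoters were at hand for 8 of the 9 genes in 10 windows, of which 5 held a match. These belonged to Mag (2 of its 3 windows), Cnp, Mobp and Opalin. The 2 Mag windows overlap and hold the same genomic match, so the 5 windows are not 5 separate cases, and the count is not read against the share of all windows. Mog, Cldn11, Mal and Ermn had no match in their windows. A match describes the letters only, and it was present both in the lowest gene and in the gene that read higher.

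Mbp, the myelin basic protein gene whose product joins the cytoplasmic faces of compact myelin, gave probes that disagreed. A probe printed with accession NM_010777 had an intensity of 3308 in Il18-/- and 5096 in Il18+/+, a difference of -0.65. A second probe of the same accession was dim, with 122 in Il18-/- and 152 in Il18+/+, a difference of -0.35. The probe printed with NM_001025245 had 7652 in Il18-/- and 6624 in Il18+/+, a difference of 0.18. Mbp has many transcript forms, and which of them each probe reads was not examined. Mean levels were 1.04 in Il18-/- and 1.32 in Il18+/+, a difference of -0.28 ± 0.42 (SD over 3 probes) or 1.21-fold lower. The spread of 0.42 compares with a median of 0.15 and a 95th percentile of 0.44 over the 594 measured genes with 3 probes. The sign of Mbp rests on the choice of probe: its brightest probe alone gives 0.18.

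The genes for proteins of the myelin surface and of the axon-facing membrane were lower by similar amounts. Mog encodes myelin oligodendrocyte glycoprotein, which lies on the outermost layer of the sheath. Its probe had an intensity of 986 in Il18-/- and 1138 in Il18+/+, a difference of -0.24 or 1.18-fold lower. Mag encodes myelin-associated glycoprotein, an adhesion molecule on the layer next to the axon. Its probe had 12741 in Il18-/- and 14089 in Il18+/+, a difference of -0.18 or 1.13-fold lower. Each of these differences was of about the size of the software's error for 1 probe.

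Cnp encodes a cyclic nucleotide phosphodiesterase that helps to keep cytoplasmic channels open in myelin. Its probe had an intensity of 9985 in Il18-/- and 11044 in Il18+/+, a difference of -0.18. Cldn11, the claudin of the tight junctions between myelin layers, had 11919 in Il18-/- and 13355 in Il18+/+, a difference of -0.19. Mal, a proteolipid of lipid-rich membrane domains that takes part in protein sorting, had 27392 in Il18-/- and 31014 in Il18+/+, a difference of -0.21. Together with Mog and Mag these make 5 genes, each read by 1 probe, whose differences lay between -0.24 and -0.18. Their order is within the spread of repeated spots.

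Ermn encodes ermin, a protein that binds actin and appears late in the maturation of oligodendrocytes. Its dimmer probe had an intensity of 2259 in Il18-/- and 2419 in Il18+/+, a difference of -0.13. Its brighter probe had 72683 in Il18-/- and 72808 in Il18+/+, a difference of -0.03 and the nearest to 0 of the 14 probes. The gene averaged -0.08 ± 0.07 (SD over 2 probes), the smallest difference of the 9 genes.

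Opalin encodes a transmembrane glycoprotein found in oligodendrocytes. Its probe had an intensity of 805 in Il18-/- and 562 in Il18+/+, and its level was 0.19 in Il18-/- and -0.30 in Il18+/+. The difference was 0.49, or 1.40-fold higher, and 2.36% of all measured genes were higher than this. It was 2.38 times the software's error for this probe. Differences past 2 times that error were found for 4 of the 14 probes, namely this one, 2 probes of Mobp and 1 of Mbp. The other 10 lay within it. The share of all measured probes past 2 times their own error is not given here. The count of 4 is therefore not read as particular to these genes. Opalin was read by 1 spot per array, so its direction has no second probe behind it.

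**Figure D2:**
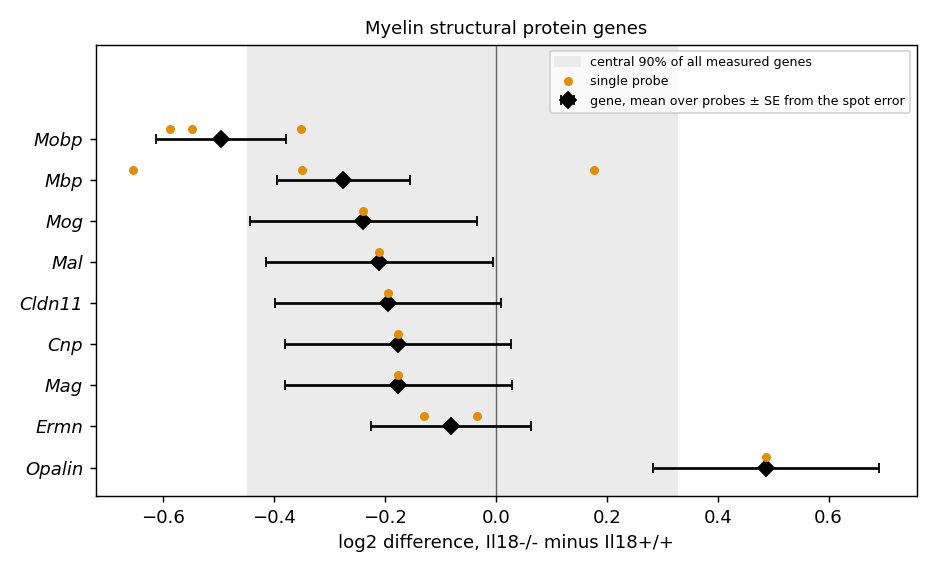
Log2 difference, Il18-/- minus Il18+/+ (horizontal axis), of each gene (black diamonds, mean over its probes; bars are the standard error from the spot error) and of single probes (orange points), with the central 90% of all measured genes in grey (-0.45 to 0.33). Mobp at -0.50 and Opalin at 0.49 lie outside the grey band on opposite sides, and the Mbp probes spread from -0.65 to 0.18.

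Differences depended on brightness across the arrays, and most of these genes were bright. The measured genes were therefore split into 5 equal parts by mean level, a choice made after their values were seen. Since levels of different probes are not on a common scale, the parts group genes by brightness only roughly. The mean level averages unlike probes. In Il18-/- those of Mbp read 2.23, 3.44 and -2.54, and those of Mobp 1.09, -1.29 and 3.98. The median difference was -0.08 in the dimmest part and 0.08 in the brightest. Cnp, Mag, Cldn11, Mal and Ermn were in the brightest part, where 24.5% of the genes were lower in Il18-/- and all 5 of these were. Among genes of that part, 1.62% were lower by 1.2-fold or more, a size that none of these 5 reached. At or below -0.19, the median of the 9, were 3.02%. The share of that part lower than the gene itself was 2.60% for Mal, 2.99% for Cldn11, 3.53% for Cnp, 3.56% for Mag and 10.3% for Ermn. Over all measured genes that share was far larger. It was 16.4% for Mal, 17.8% for Cldn11, 19.7% for Cnp, 19.8% for Mag and 31.8% for Ermn. Mobp, Mbp and Mog were in the next part, and there 0.922% of the genes were lower than Mobp, 4.13% lower than Mbp and 5.62% lower than Mog. Over all measured genes these shares were 3.97%, 11.6% and 14.1%. In that part 4.58% of the genes were lower by 1.2-fold or more, as Mobp and Mbp were. Opalin was in the middle part, and 1.49% of the genes there were higher.

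**Figure D3:**
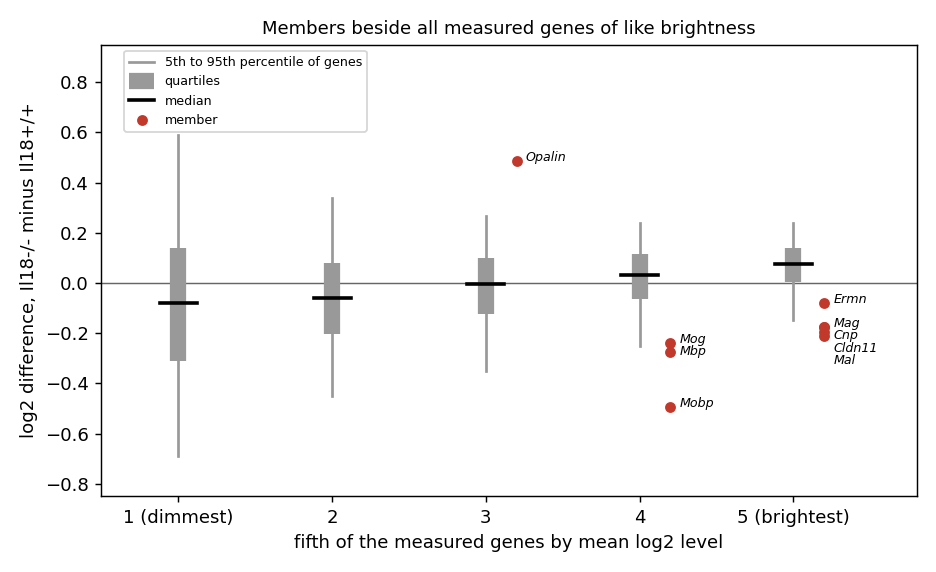
Log2 difference, Il18-/- minus Il18+/+ (vertical axis), of all measured genes in 5 equal parts by mean level (grey: thick bar, quartiles; thin line, 5th to 95th percentile; black: median), with the 9 myelin genes in red. The medians run from -0.08 in the dimmest part to 0.08 in the brightest, and Mal, Cldn11, Cnp and Mag lie below the 5th percentile of the brightest part, -0.15. None of these genes lies below the 5th percentile of all measured genes, -0.45.

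Other genes of mature oligodendrocytes were set beside these, from lists that had been chosen with earlier results of these data known. Of 7 further membrane genes of myelin, 5 were lower in Il18-/-, with a median of -0.17. Tspan2, a tetraspanin gene, differed by -0.32, Cmtm5 by -0.24 and Tmem88b by -0.17. Of 10 genes of lipid synthesis 9 were lower, with a median of -0.20. Elovl7 and Elovl1, fatty acid elongase genes, differed by -0.47 and -0.28. Ugt8a, which makes the myelin lipid galactosylceramide, differed by -0.39, and Fa2h, the fatty acid hydroxylase of myelin lipids, by -0.30.

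In the list of other mature oligodendrocyte genes 15 of the 19 measured were lower, with a median of -0.25, 9 of them by 1.2-fold or more and 6 by 1.5-fold or more. Of all measured genes, 47.4% were lower by any size, 12.3% by 1.2-fold or more and 2.57% by 1.5-fold or more. The counts of this list are given for the reported scaling only. Klk6, a serine protease gene, read -2.80 in Il18-/- and -1.48 in Il18+/+, and Cryab, a small heat shock gene, read 1.98 in Il18-/- and 3.20 in Il18+/+. Anln, an anillin gene, differed by -0.87, and Hapln2, a link protein of the nodal matrix, by -0.84. In the list of axon contact, node and paranode genes, which also holds Mag and Hapln2, 10 of 13 were lower, with a median of -0.17. There Cntn2, an adhesion gene of the region beside the paranode, differed by -0.50, and Gjb1, a gap junction gene, by -0.38. The lists of further membrane genes, lipid synthesis and other mature genes joined held 36 genes, of which 29 were lower and 7 higher, with a median of -0.22.

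Genes of lineage control and of earlier stages had medians near 0, whose sign depended on the processing. Of 12 oligodendrocyte transcription factor genes 9 were higher and 3 lower, and their median of 0.06 lay between -0.25 and 0.12 under alternative processing. Sox10 differed by -0.11, Nkx6-2 by 0.19, Zfp536 by 0.19 and Tcf7l2 by -0.36. Precursor genes were split evenly, 6 lower and 6 higher, and their median lay between -0.32 and 0.05. Pdgfra, the growth factor receptor that marks these cells, differed by 0.11, Cspg5 by 0.13, Tnr by -0.37 and C1ql1 by -0.29. Of 8 genes of newly formed oligodendrocytes 3 were lower, and their median of 0.03 lay between -0.28 and 0.09. Among these Enpp6, a marker of that stage, read -3.70 in Il18-/- and -2.70 in Il18+/+, while Bcas1 differed by 0.23 and Fyn by 0.22. Of 8 oligodendrocyte and myelin lists set beside the 9 genes, 6 had a median below 0, though the lists share members. These 6 include the evenly split precursor list, at -0.004, and the list of peripheral myelin genes, at -0.10. Medians below 0 were also found for some lists of other cells and regions, given below, while others lay above 0.

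**Figure D4:**
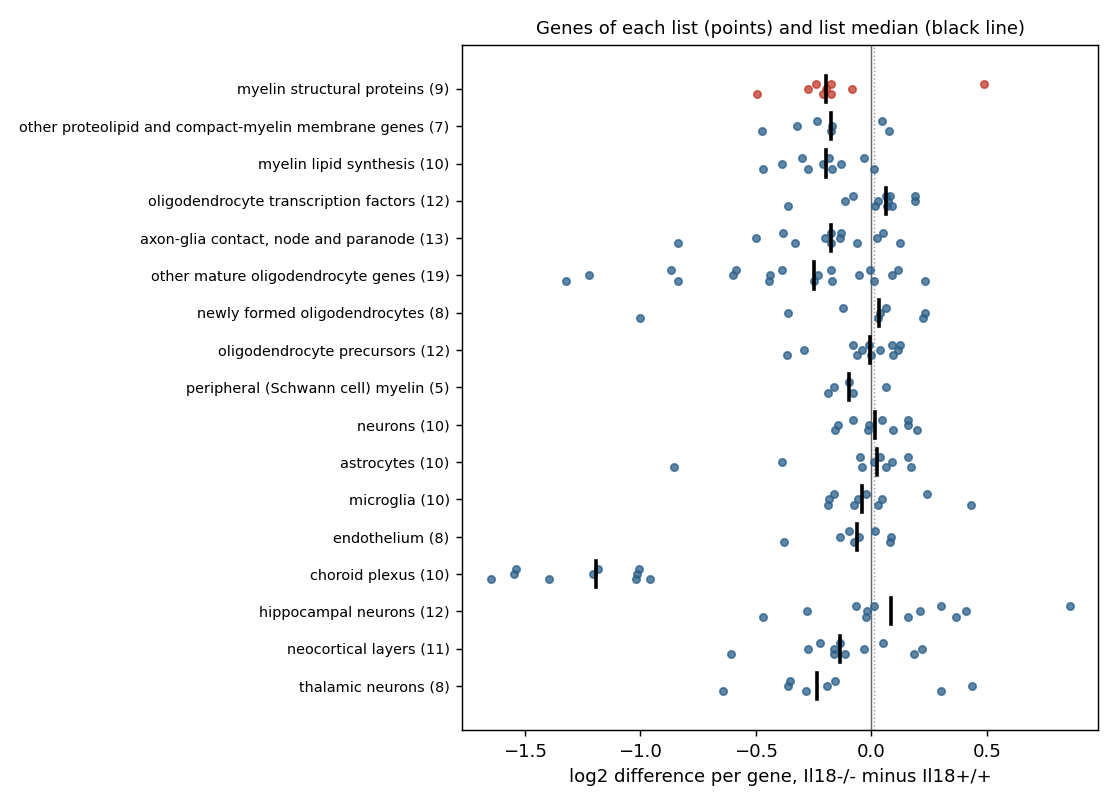
Log2 difference, Il18-/- minus Il18+/+ (horizontal axis), of each measured gene (points) in 17 lists, with the number of measured genes in brackets and the list median as a black line; the dotted line is the median of all measured genes, 0.01. The myelin structural genes (red, median -0.19) lie beside the other myelin lists, and the choroid plexus genes lie far below, with a median of -1.19. The liver and medial habenula lists, with higher medians of 2.90 and 1.57, are not drawn.

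Markers of other cells and regions were read in the same way. Among genes of peripheral myelin, made by Schwann cells, Pmp2 was well above background on neither array. Of the 5 measured genes of that list 4 were lower and 1 higher, with a median of -0.10. The 4 lower genes were Pmp22 at -0.19, Ncmap at -0.16, Egr2 at -0.10 and Prx at -0.08. Each of the next lists is given with its 2 genes farthest from 0, which need not have the direction of the others. Of 10 neuronal genes 5 were lower and 5 higher, with a median of 0.02, Eno2 at 0.20 and Stmn2 at 0.16. Among 10 astrocyte genes 4 were lower and 6 higher, with a median of 0.02, while Fgfr3 was at -0.86 and Slc1a2 at -0.39. The Fgfr3 value averages 2 probes that differ widely, at -1.52 and -0.20. Among 10 microglial genes 6 were lower and 4 higher, with a median of -0.04, while Trem2 was at 0.43 and Aif1 at 0.24. Of 8 endothelial genes 5 were lower and 3 higher, with a median of -0.06, Slco1c1 at -0.38 and Pecam1 at -0.13. The sign of the neuronal, astrocyte and microglial medians differed between alternatives.

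Markers of neighbouring tissues and of liver also differed between the arrays. All 10 choroid plexus genes were lower in Il18-/-, with a median of -1.19, and their linear signals summed to 191 in Il18-/- and 378 in Il18+/+, in units of the array's 75th percentile. Such a sum is carried by the brightest probes, here Ttr and Enpp2, and is compared between arrays only within its own list. Cldn2 and F5 were the lowest of the choroid plexus genes, at -1.65 and -1.55. All 7 measured genes of the medial habenula were higher, with a median of 1.57 and sums of 8.45 in Il18-/- and 2.33 in Il18+/+, Tac2 and Gng8 being the highest at 2.80 and 2.20. Of 9 measured liver genes 7 were higher, with a list median of 2.90, Alb and Mup20 most, at 3.64 and 3.62. The 2 liver genes that were lower, Ttr and Trf, are also on the choroid plexus and mature oligodendrocyte lists. Being the brightest of the 9, they set the sum of the liver list, which was 175 in Il18-/- and 308 in Il18+/+ and so ran against its median. The part of these tissues in the myelin result was not tested.

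All 12 hippocampal neuron genes were well above background on both arrays, 5 lower and 7 higher, with a median of 0.09 (-0.23 with the spike-in scaling), Iyd at 0.86 and Grp at -0.47. So were all 11 neocortical layer genes with a named probe, 8 lower and 3 higher, with a median of -0.14, Cplx3 at -0.61 and Rorb at -0.27. The Cplx3 spot had neighbouring spots that differed the same way. Of 8 thalamic genes 6 were lower, with a median of -0.24, Tnnt1 at -0.64 and Prkcd at 0.44. The thalamic list shares Tcf7l2 with the lists of oligodendrocyte transcription factors and of newly formed oligodendrocytes. How much white matter each dissected piece held was not measured, and dissection, pool and genotype cannot be told apart.

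Patches of neighbouring spots that differed the same way held 429 of the 59305 spots that were not controls. None of the 14 probes of the myelin genes was among them. Only spots past 1.5-fold could be counted there. Of the 14, only the Mbp probe at -0.65 and the Mobp probe at -0.59 were past that size. For the other probes the count could not show whether they lay in such a patch, and so few clustered spots make their absence uninformative. The spike-in probes, which read RNA added in fixed amounts, had a median difference of 0.31 over 8 probes after scaling. Setting these to 0 moves all genes down alike, the 9 genes' median to -0.51 and that of all genes to -0.30. The distance between both medians, -0.21, cannot change under such a shift.

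**Figure D5:**
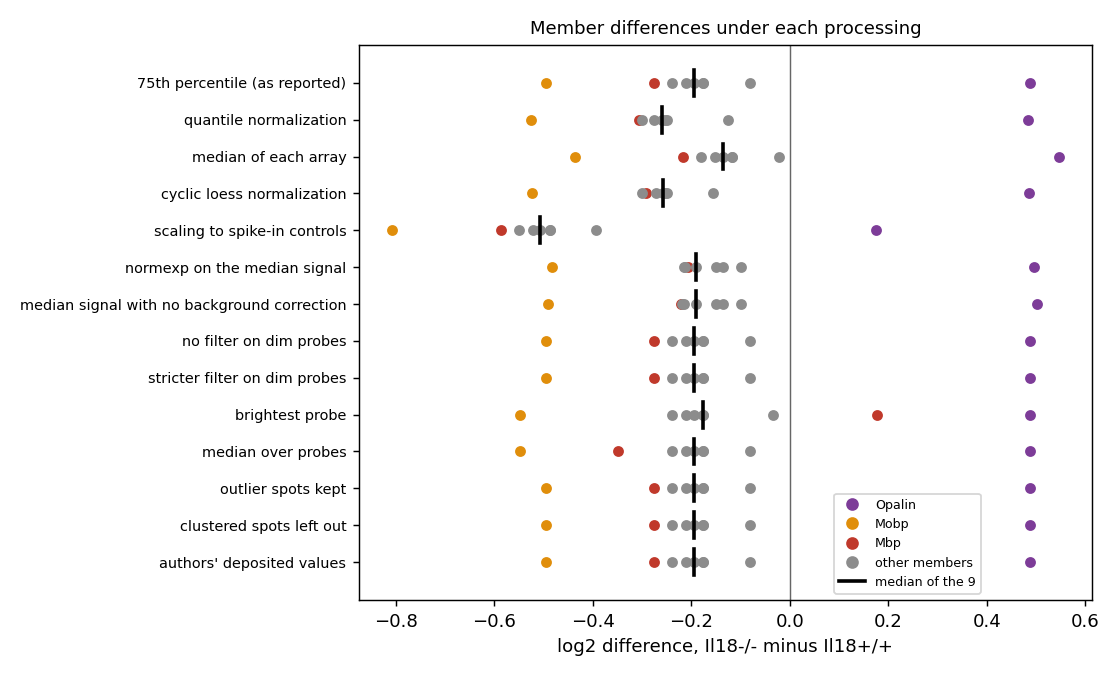
Log2 difference, Il18-/- minus Il18+/+ (horizontal axis), of the 9 genes (points) and their median (black line) under the reported scaling and 13 alternatives (vertical axis). Opalin lies above 0 and Mobp below 0 in every row, Mbp turns to 0.18 with the brightest probe, and the spike-in scaling moves all points down.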

How the data were processed

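Per the labels, each genotype's pool held RNA of 7 mice and was labelled with Cy3. Per the submitters' processing notes, Agilent Feature Extraction 10.10.1.1 made the deposited intensity values, and per the file headers' statistics these were background-subtracted and spatially detrended. The array design refers to mm9. Both files carry the same scan identifier. The authors' deposited value table held the same linear intensity, uncentred, times 1.92 (Il18-/-) and 2.05 (Il18+/+), with column medians of 139.5 (Il18-/-) and 151.5 (Il18+/+). The target of these constants is unknown, and that table was an alternative.

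Control spots (3671 of 62976) and outlier spots (177 in Il18-/- and 124 in Il18+/+) were left out, and no spot was saturated. The 75th percentile lay at 707 in Il18-/- and 692 in Il18+/+. Spots of a probe, then probes of a gene that were well above background on both arrays, were averaged. Probes were named through their accession, without its version, in the RefSeq table of GRCm38.p6. Of 55681 probes, 27235 matched 1 symbol, 0 matched several and 28446 matched none.

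No test was made. The members and the 19 gene lists were chosen with earlier results of these data known. Genes named are the 9, Il18, up to 4 per oligodendrocyte or myelin list and up to 2 per other list, those with the largest differences, except that some genes under this rule are not reported here. No gene of like pattern was named, since 2 arrays give 1 difference per gene. Fold sizes were 1.2, 1.5 and 2. The calculations were tested on simulated data. Protein sequences were not used here. Alternatives were quantile, median, cyclic loess and spike-in scaling, normexp (offset 50) or no background correction on the median signal, which stood in for the mean signal, dim probes unfiltered or filtered more strictly, the brightest probe, the median over probes, outlier spots kept, clustered spots left out, and the deposited values. A clustered spot was one past 1.5-fold that had, among its 18 nearest spots, 2 or more past 2-fold on the same side. The split by level was chosen after the values were seen. The software was limma 3.58.1 in R 4.3.3, and pandas 2.3.3, numpy 2.4.6, matplotlib 3.10.9 and scipy 1.17.1 in Python 3.11.15.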

Additional observations from a re-analysis of the deposited data

How the results depend on the processing

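Over the 13 alternatives the median of the 9 genes was below 0, from -0.26 to -0.14 without the spike-in scaling and -0.51 with it, and 7 or 8 of the 9 genes read lower. The number lower by 1.2-fold or more was 2 as reported. It was 4 with quantile and 4 with cyclic loess normalization, 8 with spike-in scaling, and 1 with the median of each array, with normexp, with no background correction and with the brightest probe. The cause was not tested, except that the spike-in scaling shifts every gene by the same amount. Mbp reversed to 0.18 with its brightest probe and was below 0 in the other 12 alternatives. Opalin stayed above 0 in all 13, from 0.18 with the spike-in scaling to 0.55, and Mobp stayed below 0, from -0.81 to -0.44. The 13 are not 13 separate checks. For the 9 genes, both filter settings for dim probes and leaving out clustered spots returned the reported values. The deposited values gave the same differences as keeping outlier spots. For genes with 1 probe, such as Opalin, the brightest probe and the median over probes could change nothing. Of the 8 oligodendrocyte and myelin lists, 5 to 8 had a median below 0. The hippocampal list reversed to -0.23 with the spike-in scaling. The stricter filter on dim probes returned the reported value for every result, so it gives no separate check on dim probes. Genes lower by 1.2-fold numbered 1942 as reported, 990 with normexp, 3427 without a filter and 9241 with spike-in scaling. Genes higher by that size numbered 1154 as reported, 667 with normexp, 751 with no background correction, 2029 without a filter, 1818 with the median of each array and 274 with spike-in scaling. At 1.5-fold the alternatives gave 105 to 1840 lower, against 405 as reported, and 114 to 815 higher, against 264. No paired analysis was possible because each genotype had 1 pool. With 1 spot for each probe of the 9 genes, differences of about 0.2 are near the software's spot error.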
